A study of Mus musculus with 8 samples.

Results

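The acyl-CoA thioesterases are the enzymes that split a fatty acyl-CoA into a free fatty acid and coenzyme A, and 10 genes of the Acot family are described here among the 31053 genes of the count table. Acot1 was picked because it is among the genes with the largest falls in this comparison, and Acot2, Acot3, Acot4, Acot7, Acot8, Acot9, Acot11, Acot12 and Acot13 joined it by family name. Bulk RNA-seq was performed on brown adipose tissue (BAT) of 4 WT mice and 4 mice with the label ATGLKO, called Ucp1Δ/Δ mice here, to compare BAT with and without adipose triglyceride lipase (ATGL) in thermogenic adipocytes. The Ucp1Δ/Δ mice carried floxed alleles of Pnpla2, the ATGL gene, together with a Ucp1-driven Cre, so that the deletion was aimed at Ucp1-expressing adipocytes and not at the other cells of the tissue. All 8 mice were males of the C57BL6/J strain on a normal diet, and the labels give an age of 10 weeks, whereas the study's text gives a younger age for this comparison. Whether the WT mice carried floxed alleles without Cre, or were littermates, is not given in the sources used here.

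Acyl-CoA is the activated form in which a fatty acid is oxidised, elongated or built into triglyceride, and a thioesterase reverses that activation. The family has 2 unrelated kinds of fold. The type I enzymes are near copies of one another placed in different compartments, with Acot1 in the cytosol, Acot2 in mitochondria, and Acot3 and Acot4 in peroxisomes, and their genes are textbook targets of the fatty acid receptor PPARα. The type II enzymes share a hotdog fold and include cytosolic Acot7, peroxisomal Acot8, mitochondrial Acot9, mitochondria-associated Acot13, and the START-domain proteins Acot11 and Acot12. Acot11, also called Them1, is known in brown fat for limiting the oxidation of fatty acids released from lipid droplets.

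The level of Acot1 was between 13.3 and 63.6 CPM (counts scaled by library size) in WT mice and between 3.86 and 5.31 CPM in Ucp1Δ/Δ mice. Acot2, its closest relative, ranged from 250 to 607 CPM in WT and from 246 to 456 CPM in Ucp1Δ/Δ mice. Acot11 and Acot4 were lower in Ucp1Δ/Δ BAT, calls that were kept in 18 and 9 of 19 alternative fits. Acot7, Acot8, Acot9 and Acot13 did not pass the test in either direction. Acot3 and Acot12 had too few counts to be tested.

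The type I genes lie in a row on the forward strand of chromosome 12 in the GRCm38 build, in the order Acot2 (chr12:83987861-83993873), Acot1 (chr12:84009490-84018371), Acot4 (chr12:84038379-84048601) and Acot3 (chr12:84052144-84060402), followed by Acot5 and Acot6, which are not among the 10. The coding sequences of Acot1 and Acot2 were 95.3% identical over 1236 aligned bases, against 77.3% for Acot1 and Acot4. Identity to Acot1 was 83.9% for Acot3, 84.2% for Acot5 and 92.0% for Acot6, the last over only 501 aligned bases. The longest run without a difference between Acot1 and Acot2 was 273 bases, at coding bases 887 to 1159 of Acot1. The stretch just before it is shown because no ungapped stretch of 75 aligned coding bases had more differences between these genes. Its 14 differing bases are in capitals (coding bases 812 to 886 of Acot1 and 935 to 1009 of Acot2, 5′ to 3′, GENCODE M21 transcripts).
Acot1: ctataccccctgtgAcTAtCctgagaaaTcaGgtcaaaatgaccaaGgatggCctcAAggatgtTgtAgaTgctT
Acot2: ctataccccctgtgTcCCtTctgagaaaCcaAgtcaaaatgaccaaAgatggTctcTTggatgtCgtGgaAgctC

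Reads were single-end and 75 cycles long, so each transcript was cut into all its 75-base windows and each window was looked up in the transcripts of every other gene, on either strand. Of the 2198 windows of Acot1, 581 (26.4%) had an exact copy in another Acot gene, 434 of them in Acot2. Of the 2122 windows of Acot2, 450 (21.2%) had one. None of the last 500 windows at the 3′ end of Acot1, Acot2, Acot3 or Acot4 had a copy in another Acot gene. Acot7 and Acot13 shared no window with any gene, and Acot9 shared 7.15% of its windows with Acot10, which was at 0 counts in all 8 mice. Reads from shared windows cannot be placed, and how the counting dealt with them is not given in the sources used here, so the values of Acot1 and Acot2 rest on the remaining windows or carry some exchange between these genes.

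**Figure D1:**
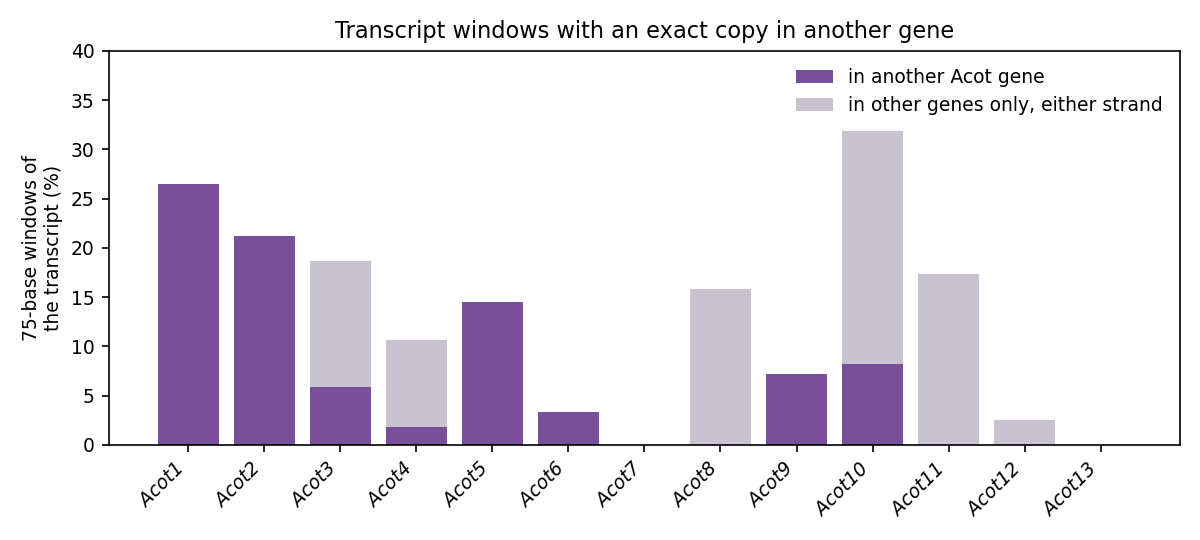
Share of the 75-base windows of each Acot transcript (%) that occur exactly in another Acot gene (dark) or only in genes outside the family (light), for the 10 genes and for Acot5, Acot6 and Acot10. Acot1 and Acot2 shared 26.4% and 21.2% of their windows within the family, and Acot7 and Acot13 shared none with any gene.

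The 250 bases before the start sites of Acot1, Acot2 and Acot4 are shown because these genes sit side by side and Acot1 and Acot4 were lower while Acot2 was not called, a difference between genes that was not itself tested (RefSeq, GRCm38.p6, forward strand, 5′ to 3′). Capitals mark a match to the PPAR element DR1, which is 2 copies of AGGTCA with 1 base of any kind between them, with up to 2 differences on either strand.
Acot1 chr12:84009252-84009501: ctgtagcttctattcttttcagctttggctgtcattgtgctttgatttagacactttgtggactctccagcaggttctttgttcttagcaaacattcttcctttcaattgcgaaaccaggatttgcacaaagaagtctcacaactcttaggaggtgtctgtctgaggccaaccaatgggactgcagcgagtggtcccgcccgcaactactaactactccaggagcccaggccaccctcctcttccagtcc
Acot2 chr12:83987611-83987860: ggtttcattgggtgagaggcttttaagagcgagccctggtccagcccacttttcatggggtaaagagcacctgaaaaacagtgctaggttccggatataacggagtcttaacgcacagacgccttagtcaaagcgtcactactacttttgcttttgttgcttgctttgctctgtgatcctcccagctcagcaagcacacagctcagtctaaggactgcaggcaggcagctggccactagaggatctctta
Acot4 chr12:84038129-84038378: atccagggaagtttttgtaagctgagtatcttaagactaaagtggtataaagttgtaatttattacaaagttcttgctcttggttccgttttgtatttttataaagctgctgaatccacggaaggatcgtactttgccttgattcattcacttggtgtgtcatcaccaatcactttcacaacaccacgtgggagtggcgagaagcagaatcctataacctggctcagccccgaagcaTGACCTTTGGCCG

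The window of Acot4 held such a match on the reverse strand at the 13 bases next to the start site, with 2 differences, and that match holds an exact half-site, AGGTCA. The windows of Acot1 and Acot2 held neither the DR1 nor the half-site. Over 32851 promoter windows of the same length, 3.24% held a DR1 with up to 2 differences and 14.02% held the half-site. The E-box CACGTG was found in the window of Acot4 and in 1 of the windows of Acot11, and in 6.02% of all windows. These are matches of letters in a short window and say nothing about binding. Acot1 and Acot2 were 59.4% identical over the 212 aligned bases of their windows, much less than in their coding sequence.

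Pnpla2, the deleted gene, was measured at 2837, 2702, 2961 and 3152 CPM in WT mice 1 to 4 and at 514, 448, 403 and 531 CPM in Ucp1Δ/Δ mice 1 to 4, a log2 fold change (log2FC, Ucp1Δ/Δ over WT) of -2.62 (SE 0.17, n = 4 mice per genotype, edgeR quasi-likelihood test, adjusted p = 1.97e-07). Every library therefore matched its label, although counts per gene cannot tell a floxed from a recombined transcript. Total counts ranged from 2017697 to 3115956 per mouse, at which 3 counts correspond to 0.933 to 1.53 CPM. The labels name the stromal vascular fraction as the cell type, but the summed CPM of 11 brown adipocyte markers, Ucp1, Cidea, Adipoq and Plin1 among them, was between 11625 and 25863 in the 8 mice, so adipocyte RNA was abundant in every library. The summed CPM of 12 macrophage markers was 114 to 178 in WT and 1147 to 1993 in Ucp1Δ/Δ mice, and that of 6 fibroblast markers 340 to 534 and 1068 to 2163, while that of 6 T or B cell markers stayed between 2.004 and 7.78, with Cd79a at 0 throughout. The brown adipocyte sum was 14837 to 25863 in WT and 11625 to 17213 in Ucp1Δ/Δ mice, and in bulk tissue fewer cells of a type and less RNA per cell cannot be told apart. All 11 macrophage markers tested and all 6 fibroblast markers were higher in Ucp1Δ/Δ mice, as was 1 of 5 endothelial markers tested (summed CPM 137 to 172 in WT and 190 to 205 in Ucp1Δ/Δ mice), while of the 11 brown adipocyte markers 4 were lower and 1 higher. The macrophage, fibroblast and endothelial sums did not overlap between genotypes, so their part in each result below cannot be told apart from the genotype. The summed CPM of 12 skeletal muscle markers varied between mice within each genotype, from 32.4 to 2030 in WT and from 98.6 to 2838 in Ucp1Δ/Δ mice. It is given below beside Acot1 and Acot2, which are not the only genes that split the WT mice in the same way.

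Acot1, the cytosolic type I enzyme, was counted 26, 142, 144 and 37 times in WT mice 1 to 4 and 15, 14, 12 and 9 times in Ucp1Δ/Δ mice 1 to 4. These counts correspond to 13.3, 63.6, 48.1 and 18.7 CPM in WT and to 5.31, 4.36, 5.01 and 3.86 CPM in Ucp1Δ/Δ mice. The genotypes did not overlap, and WT mice 2 and 3 stood well above WT mice 1 and 4. The Ucp1Δ/Δ mean of 4.64 ± 0.65 CPM was 12.9% of the WT mean of 35.9 ± 24.0 CPM (SD, n = 4 each). The fitted log2FC was -2.96 (SE 0.44), the lowest but 1 of the 8930 genes tested, which is what chose Acot1 and is given as a description with no test. It ranged from -3.40 to -2.48 over the alternative fits, -3.23 to -2.57 of it when each mouse was left out in turn.

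The log2 CPM of Acot1 had an SD of 1.05 among WT mice, and 99.3% of 3068 genes of similar level in WT had a smaller one. The highest WT mouse was 4.80 times the lowest. These are the values that chose Acot1 and are given as a description, and the 9 to 15 counts of the Ucp1Δ/Δ mice are too few to measure a spread between those mice.

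Acot2, the mitochondrial type I enzyme, was measured at 250, 607, 462 and 269 CPM in WT mice 1 to 4. In Ucp1Δ/Δ mice 1 to 4 it was at 456, 246, 434 and 294 CPM. The genotypes overlapped almost completely, and in both of them a pair of mice was high and a pair low. The log2FC was -0.15 (SE 0.27, n = 4 mice per genotype, edgeR quasi-likelihood test, adjusted p = 0.749). Its sign was not stable, at 0.11 without WT mouse 2 and 0.0014 without Ucp1Δ/Δ mouse 2. The ratio of Acot2 to Acot1 counts was 18.9, 9.54, 9.60 and 14.4 in WT mice 1 to 4 and 85.9, 56.5, 86.5 and 76.0 in Ucp1Δ/Δ mice 1 to 4. Acot1 thus held 7.61 ± 2.21% of the counts of both genes in WT and 1.33 ± 0.28% in Ucp1Δ/Δ mice (SD, n = 4), a ratio that does not depend on library scaling but that follows from how Acot1 was chosen.

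The WT mice with high Acot1, mice 2 and 3, were also those with high Acot2, and they had the least skeletal muscle RNA, with summed marker levels of 138 and 32.4 CPM against 2030 and 962 CPM in WT mice 1 and 4. Among Ucp1Δ/Δ mice, Acot2 was highest in mice 1 and 3, whose muscle sums were 476 and 98.6 CPM, against 2838 and 1269 CPM in mice 2 and 4. Acot1 had 15, 14, 12 and 9 counts in Ucp1Δ/Δ mice 1 to 4, too few to rank those mice. The brown adipocyte sum split the mice in the same way. It was 25863 and 22067 CPM in WT mice 2 and 3, against 18783 and 14837 CPM in WT mice 1 and 4. In Ucp1Δ/Δ mice 1 and 3 it was 17213 and 14215 CPM, against 11625 and 12654 CPM in mice 2 and 4. Muscle RNA and brown adipocyte RNA can therefore not be told apart here. None of the 11 muscle markers tested differed between genotypes at an adjusted p of 0.05, and none of the 12 was at 0 in all mice. In the 4 mice with a muscle sum below 500 CPM, a comparison chosen after seeing the data, Acot1 was at 63.6 and 48.1 CPM in WT and at 5.31 and 5.01 CPM in Ucp1Δ/Δ mice, a log2FC of -3.40. With the muscle sum as a covariate, also chosen after seeing the data, the log2FC of Acot1 was -2.48 and that of Acot2 was 0.085.

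**Figure D2:**
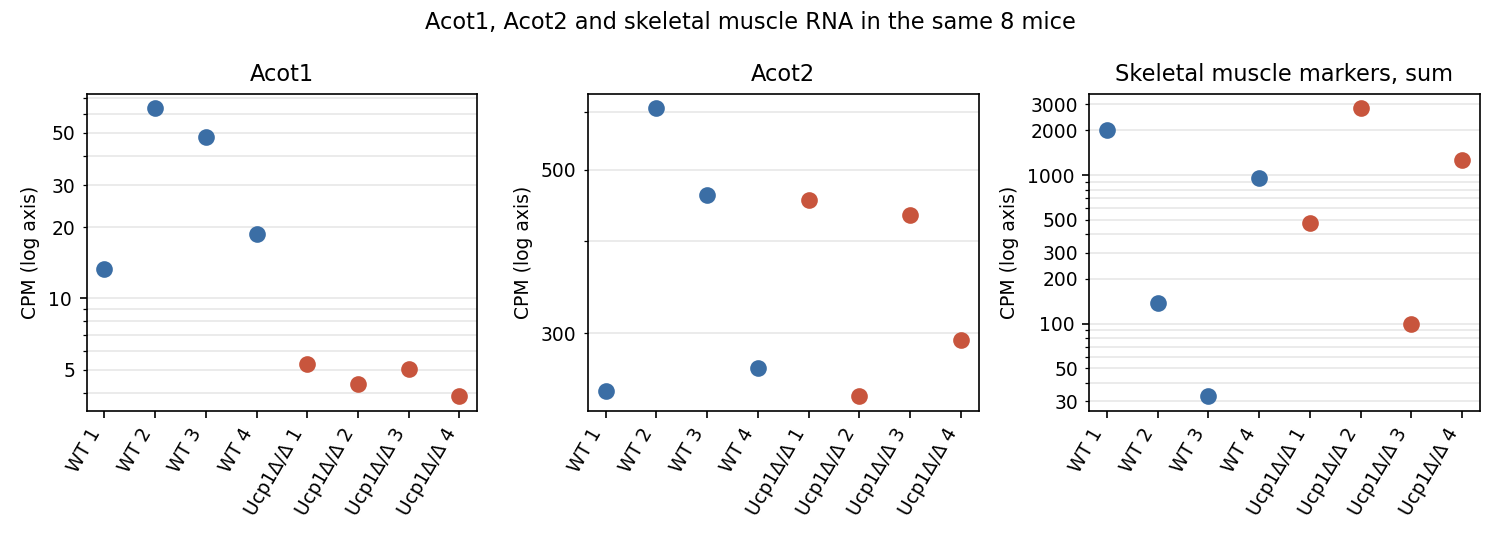
Acot1, Acot2 and the sum of 12 skeletal muscle markers in CPM on log axes, with 1 point per mouse (blue, WT mice 1 to 4; red, Ucp1Δ/Δ mice 1 to 4). In both genotypes the mice with the 2 lowest muscle sums had the 2 highest levels of Acot2, and in WT mice also of Acot1. The Acot1 counts of the Ucp1Δ/Δ mice were too few to rank those mice. Acot1 separated the genotypes and Acot2 did not.

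Acot4, a peroxisomal type I enzyme known to act on succinyl-CoA and other dicarboxylic acyl-CoAs, was measured at 9.69, 16.1, 14.03 and 9.62 CPM in WT mice 1 to 4. In Ucp1Δ/Δ mice 1 to 4 it was at 8.49, 6.22, 5.85 and 7.30 CPM, from 14 to 24 counts per mouse. Every Ucp1Δ/Δ mouse was below every WT mouse, with Ucp1Δ/Δ mouse 1 closest to WT mice 1 and 4. As with Acot1, WT mice 2 and 3, which had the least muscle RNA, were above WT mice 1 and 4. The Ucp1Δ/Δ mice did not split by muscle RNA in this way. Acot4 fell by 0.84 on the log2 scale (SE 0.27, n = 4 mice per genotype, edgeR quasi-likelihood test, adjusted p = 0.0379), to 56.3% of the WT mean. This call was near the threshold: it was made in 9 of 19 alternative fits, with adjusted p between 0.0238 and 0.102. It was lost without WT mouse 2 or 3 (0.0866 and 0.102) and without Ucp1Δ/Δ mouse 2, 3 or 4 (0.101, 0.0928 and 0.0729). DESeq2's Wald test did not make the call either (adjusted p = 0.0598), nor did the edgeR fits with total counts only (0.0792) or the replicate block (0.0732). The call was also lost in edgeR with the muscle covariate (0.0829) and in the 4 mice with little muscle RNA (0.0963). The exons of Acot4 overlap the antisense gene 4732463B04Rik over 615 bases, and that gene had 0 to 2 counts per mouse. Such low counts cannot show whether reads in the overlap were dropped, since how overlaps were counted is not given.

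Acot3, the other peroxisomal type I gene of the 10, was counted 0, 4, 10 and 2 times in WT mice 1 to 4 and 2, 2, 0 and 2 times in Ucp1Δ/Δ mice. All but 2 of these values are at or under the floor of 3 counts, and Acot3 was not tested. Of the type I genes outside the 10, Acot5 was at 0 counts in every mouse, and Acot6 was at 4.56 to 8.96 CPM in WT and 6.72 to 12.02 CPM in Ucp1Δ/Δ mice (log2FC 0.54, SE 0.31, edgeR adjusted p = 0.240). The sign of the difference in Acot6 was therefore opposite to that in Acot1 and Acot4 of the same row of genes, without passing the test.

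Acot11, the START-domain thioesterase of brown fat (chr4:106744555-106804998, reverse strand), was measured at 54.1, 56.9, 55.4 and 29.4 CPM in WT mice 1 to 4. In Ucp1Δ/Δ mice 1 to 4 it was at 28.3, 18.7, 33.0 and 18.03 CPM. WT mouse 4 lay within the range of the Ucp1Δ/Δ mice, and the other 3 WT mice lay above it. Acot11 fell by 1.004 on the log2 scale (SE 0.25, n = 4 mice per genotype, edgeR quasi-likelihood test, adjusted p = 0.00874), from 48.9 ± 13.1 to 24.5 ± 7.37 CPM (SD, n = 4). The call was kept in 18 of 19 alternative fits, with each mouse left out in turn among them, and the exception was the fit on the 4 mice with little muscle RNA (-0.86, adjusted p = 0.0514). The exons of Acot11 overlap Fam151a on the opposite strand over 1263 bases, and Fam151a was at 0 counts in all 8 mice. Here too the counts cannot show whether reads in the overlap were dropped.

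Acot8, the peroxisomal type II enzyme, was at 12.2, 18.8, 18.4 and 9.62 CPM in WT mice 1 to 4 and at 9.55, 13.4, 7.94 and 8.16 CPM in Ucp1Δ/Δ mice 1 to 4. The genotypes overlapped, since Ucp1Δ/Δ mouse 2 was above WT mice 1 and 4, and the log2FC of -0.60 (SE 0.27) did not pass the test (edgeR, adjusted p = 0.144). Its exons overlap Snx21 on the opposite strand over 246 bases, and Snx21 was at 29.9 to 50.2 CPM in the 8 mice, so some of its reads may be shared where strand was not used.

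Acot7, the cytosolic enzyme with a preference for arachidonoyl-CoA, was at 33.7, 22.4, 28.1 and 33.9 CPM in WT mice 1 to 4 and at 28.7, 21.5, 28.8 and 21.0 CPM in Ucp1Δ/Δ mice 1 to 4. The ranges overlapped over most of their length, with a log2FC of -0.24 (SE 0.20, edgeR adjusted p = 0.467). Its lowest WT level was in mouse 2, where Acot1 was highest.

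Acot9, a mitochondrial type II enzyme whose gene lies on chromosome X, was at 27.5, 39.0, 18.7 and 16.2 CPM in WT mice 1 to 4 and at 43.5, 32.05, 30.5 and 36.9 CPM in Ucp1Δ/Δ mice 1 to 4. WT mouse 2 alone lay within the range of the Ucp1Δ/Δ mice. The log2FC of 0.50 (SE 0.25, edgeR adjusted p = 0.183) did not pass the test with all 8 mice, and was 0.78 with an adjusted p of 0.0187 without WT mouse 2.

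Acot13, the small mitochondria-associated enzyme also called Them2, was at 463, 418, 427 and 369 CPM in WT mice 1 to 4 and at 554, 390, 555 and 465 CPM in Ucp1Δ/Δ mice 1 to 4. The log2FC was 0.23 (SE 0.17, edgeR adjusted p = 0.378), with Ucp1Δ/Δ mouse 2 inside the WT range. Acot12, a cytosolic acetyl-CoA hydrolase, was counted 0, 0, 3 and 0 times in WT and 1, 1, 1 and 3 times in Ucp1Δ/Δ mice, at or under the floor in every mouse.

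**Figure D3:**
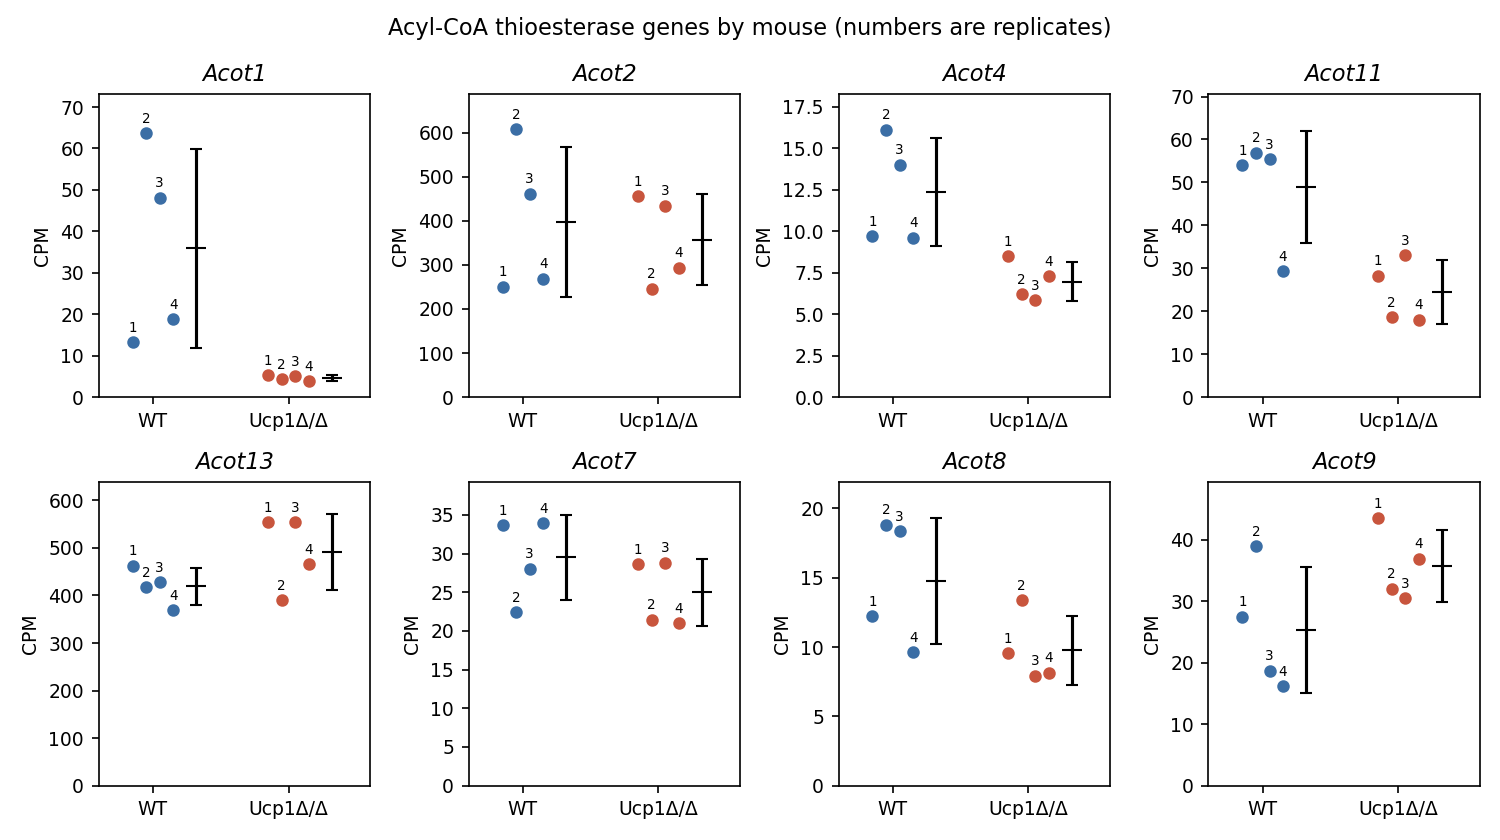
CPM of the 8 tested members in each mouse (numbers are replicates 1 to 4; blue, WT; red, Ucp1Δ/Δ), with the mean and SD in black; each panel has its own axis, which starts at 0. Acot1 and Acot4 separate the genotypes, and Acot11 does so except for WT mouse 4. Acot9, which did not pass the test, does so in the opposite direction except for WT mouse 2. Acot2, Acot7, Acot8 and Acot13 overlap.

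Of the 10 members, 8 passed the filter on low counts, and 3 of these (Acot1, Acot4 and Acot11) were called lower and 0 called higher at the threshold of 0.05 on the adjusted p. Over all 8930 genes tested, 7.63% were called lower, 13.3% higher and 21.0% in either direction. Because Acot1 was chosen on this same contrast, nothing is read from the count set beside these shares. The median log2FC was -0.42 over the 8 members and -0.24 over the 7 without Acot1, against -0.0087 over all genes tested. It was -0.39 over the 11 brown adipocyte markers, of which 4 were called lower and 1 higher. Whether the members moved apart from these markers was not tested. Acot1 and Acot4 were the members with every Ucp1Δ/Δ mouse below every WT mouse, a pattern held by 9.37% of all genes tested. For Acot1 this follows from how it was chosen, and among the 7 other tested members Acot4 alone had it. No tested member had the opposite pattern, which 14.4% of all genes tested held.

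Divided by transcript length, the levels of the members spanned more than 2 orders of magnitude. In WT mice, Acot13 was at 582 ± 53.6 CPM per kb and Acot2 at 181 ± 77.2 (SD, n = 4), and the ranges of these genes did not overlap each other or those below. Acot7 (19.6 ± 3.63 CPM per kb), Acot1 (15.8 ± 10.6), Acot9 (14.5 ± 5.88), Acot8 (12.8 ± 3.95) and Acot11 (8.60 ± 2.30) followed, and each overlapped its neighbour in this order. Acot4 (1.99 ± 0.52) lay below these 5, and Acot3 and Acot12 lay lowest. In Ucp1Δ/Δ mice Acot13 (681 ± 110) and Acot2 (163 ± 47.0) again came first, followed by Acot9 (20.4 ± 3.34) and Acot7 (16.6 ± 2.88), whose ranges overlapped, and by Acot8 (8.47 ± 2.19). Acot1 was at 2.04 ± 0.29 CPM per kb, with its whole range below that of Acot11 (4.31 ± 1.29) and above that of Acot4 (1.12 ± 0.19). Where along a transcript the reads were taken is not given in the sources used here. If reads come from one end only, dividing by length favours the short transcript of Acot13 and lowers the long ones of Acot4 and Acot11. Without that division, the WT range of Acot13 (369 to 463 CPM) lay within that of Acot2 (250 to 607 CPM).

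Summed over the 10 members, the WT mice held 985 ± 217 CPM and the Ucp1Δ/Δ mice 956 ± 194 CPM (SD, n = 4), a difference smaller than the spread within either genotype. Most of this sum came from Acot2 and Acot13. Without these genes the sum was 169 ± 43.5 CPM in WT and 108 ± 13.3 CPM in Ucp1Δ/Δ mice. No test was made on these sums, since the members were chosen with results known.

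Across the 8 mice, the genes most like Acot1 were sought by the Pearson r of the deviations of log2 CPM from each genotype mean, which leaves out the genotype difference itself. Of 6427 genes with a mean of at least 10 CPM, the 5 highest were Klhl22 (r = 0.98), an adaptor of a ubiquitin ligase, 1810043G02Rik (0.98), Ttc7b (0.97), Heca (0.97) and Arxes1 (0.96), a gene known from adipocytes. Among family members Acot2 ranked 92nd (0.88), followed by Acot8 (0.69), Acot11 (0.43), Acot9 (0.35), Acot13 (0.07) and Acot7 (-0.58). Acot4 (0.84) and Acot6 (0.55) had means under 10 CPM and were not among the genes ranked. Set beside them, Acot4 would stand at 163rd. The log2 CPM of Acot1 had an SD of 1.05 in WT and 0.18 in Ucp1Δ/Δ mice. Each r therefore rests mainly on the 4 WT mice, which formed a high and a low pair of Acot1. The points share their libraries, depth and muscle content, the median r over all genes ranked was 0.04, and 61 genes had an r above 0.9. Ttc7b and Arxes1 were higher in Ucp1Δ/Δ mice, with log2FC of 0.90 and 0.81 (edgeR adjusted p = 0.0491 and 0.0206), calls that were lost without WT mouse 1 (adjusted p = 0.133 and 0.0703), and for Ttc7b also without WT mouse 4 or any of the Ucp1Δ/Δ mice, and for Arxes1 without Ucp1Δ/Δ mouse 1 (0.0575). Klhl22 (0.21), Heca (-0.32) and 1810043G02Rik (-0.37) did not pass the test, although for Heca every Ucp1Δ/Δ mouse (28.3 to 30.4 CPM) was below every WT mouse (31.1 to 44.4 CPM).

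Among 13 other genes for enzymes that cleave thioesters, Acot5, Acot6 and Acot10 included, 8 were tested, 1 was lower (12.5%, beside 7.63% of all genes) and 0 higher, and their median log2FC was -0.21. The lower gene was Lypla1, which removes palmitate from proteins, at 45.9, 82.4, 49.4 and 33.9 CPM in WT mice 1 to 4 and at 35.03, 22.4, 23.4 and 22.7 CPM in Ucp1Δ/Δ mice 1 to 4, a log2FC of -1.03 (SE 0.25, edgeR adjusted p = 0.00874).

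The acyl-CoA synthetases catalyse the opposite step, the activation of the fatty acid. Of 19 synthetase genes 13 were tested, 8 were lower and 0 higher, with a median log2FC of -0.66, beside the 7.63% of all genes called lower. The smallest adjusted p-values belonged to Acsl5 for long-chain acids (84.9 ± 30.5 to 30.7 ± 4.46 CPM, log2FC -1.47, adjusted p = 0.000345), Acsm3 for medium-chain acids (41.0 ± 4.36 to 15.9 ± 7.42 CPM, -1.38, adjusted p = 0.00115) and Acss2 for acetate (62.9 ± 18.7 to 26.5 ± 8.05 CPM, -1.24, adjusted p = 0.00206; SD, n = 4, edgeR). The count of 8 was 5 without Ucp1Δ/Δ mouse 2 or 3.

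Coenzyme A is the other product of a thioesterase. Of 15 genes that make, carry or break it down 12 were tested and 9 did not pass, while 2 were lower and 1 higher, beside 7.63% lower and 13.3% higher over all genes tested. Their median log2FC was -0.34. The peroxisomal CoA hydrolase Nudt7 fell from 99.4 ± 7.83 to 51.5 ± 6.38 CPM (log2FC -0.95, edgeR adjusted p = 0.00058) and the vitamin transporter Slc5a6, which takes up the CoA precursor pantothenate, from 11.9 ± 3.30 to 4.79 ± 0.64 CPM (-1.33, adjusted p = 0.00357). Vnn1, which releases pantothenate from pantetheine, rose from 4.98 ± 3.29 to 38.6 ± 13.6 CPM (2.97, adjusted p = 5.04e-05; SD, n = 4). The count of genes called was 5 without WT mouse 2.

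Of 10 acyl-CoA binding and partner proteins, all tested, 2 were lower and 1 higher, with a median log2FC of -0.30 (all genes: 7.63% lower, 13.3% higher). The acyl-CoA binding protein Dbi was at 5456 ± 1129 CPM in WT and 3552 ± 732 CPM in Ucp1Δ/Δ mice (log2FC -0.62, edgeR adjusted p = 0.0418), and Acbd4 at 78.9 ± 25.9 and 51.7 ± 4.26 CPM (-0.61, adjusted p = 0.0499). Both calls sat at the threshold: that of Dbi was lost without WT mouse 1 or 3 or Ucp1Δ/Δ mouse 1, 2 or 4 (adjusted p from 0.0596 to 0.125), and that of Acbd4 without WT mouse 2 or 3 or any of the Ucp1Δ/Δ mice (0.0762 to 0.148). The fatty acid binding protein Fabp3 rose from 410 ± 99.4 to 838 ± 363 CPM (1.03, adjusted p = 0.00968). The count of 3 was 1 without WT mouse 3, Ucp1Δ/Δ mouse 2 or Ucp1Δ/Δ mouse 4. Pctp, the binding partner of Acot13, did not pass the test (0.64, adjusted p = 0.114).

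Peroxisomes shorten very long acyl chains and hold Acot3, Acot4 and Acot8. Of 18 other genes of peroxisomal acyl-CoA handling 16 were tested, 7 were lower and 1 higher, with a median log2FC of -0.71, beside the shares of 7.63% and 13.3% over all genes. Eci2, an enoyl-CoA isomerase, fell from 143 ± 22.8 to 70.1 ± 9.46 CPM (-1.03, adjusted p = 0.000578), and the membrane transporter Abcd3 from 244 ± 40.1 to 119 ± 20.7 CPM (-1.04, adjusted p = 0.000696). Acox3, the oxidase for branched chains, rose from 27.3 ± 4.28 to 51.6 ± 6.23 CPM (0.92, adjusted p = 0.00185; SD, n = 4, edgeR).

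Since the type I genes are known PPARα targets, 23 other PPAR target genes were counted, some of which are also in the lists above. Of these 17 were tested, 4 were lower and 3 higher, with a median log2FC of -0.46, where 7.63% of all genes were lower and 13.3% higher. Among the lower genes were the acylcarnitine carrier Slc25a20 (-1.01, adjusted p = 0.000739), Ucp3 (-1.09, adjusted p = 0.0209) and Hadhb, a subunit of the mitochondrial trifunctional protein, which is named after its value was seen (-0.68, adjusted p = 0.0305). The call of Ucp3 was lost without WT mouse 3 or Ucp1Δ/Δ mouse 2 or 3 (adjusted p = 0.0948, 0.0802 and 0.06). The higher genes were Vnn1 and Fabp3, given above, and Cpt1a, the carnitine palmitoyltransferase of liver and other tissues, which rose from 7.51 ± 1.07 to 18.6 ± 2.14 CPM (1.29, adjusted p = 0.000653). Cpt1b, in the same list, was at 0 counts in every WT mouse and at 0 to 2 counts in Ucp1Δ/Δ mice, and was not tested. The value of Cpt1a therefore does not speak for both genes. The count of 7 targets called in either direction was 11 without WT mouse 4. Of 11 PPAR receptors and partner proteins, all tested, 1 was lower (9.09%, near the 7.63% of all genes) and 0 higher, with a median of 0.02. The lower gene was Ppara itself, at 232, 132, 237 and 209 CPM in WT mice 1 to 4 and at 63.3, 78.1, 142 and 96.1 CPM in Ucp1Δ/Δ mice 1 to 4 (-1.10, SE 0.25, edgeR adjusted p = 0.00476), where WT mouse 2 was below Ucp1Δ/Δ mouse 3. The count was 3 without WT mouse 4. In the 4 mice with little muscle RNA, the calls of Ppara (log2FC -0.85, adjusted p = 0.163), Acss2 (-0.84, 0.0695), Cpt1a (1.13, 0.0601) and Fabp3 (1.01, 0.0554) were lost, in a fit with 2 mice per genotype, and the log2FC of Fabp3 and Cpt1a stayed close to those with all 8 mice.

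**Figure D4:**
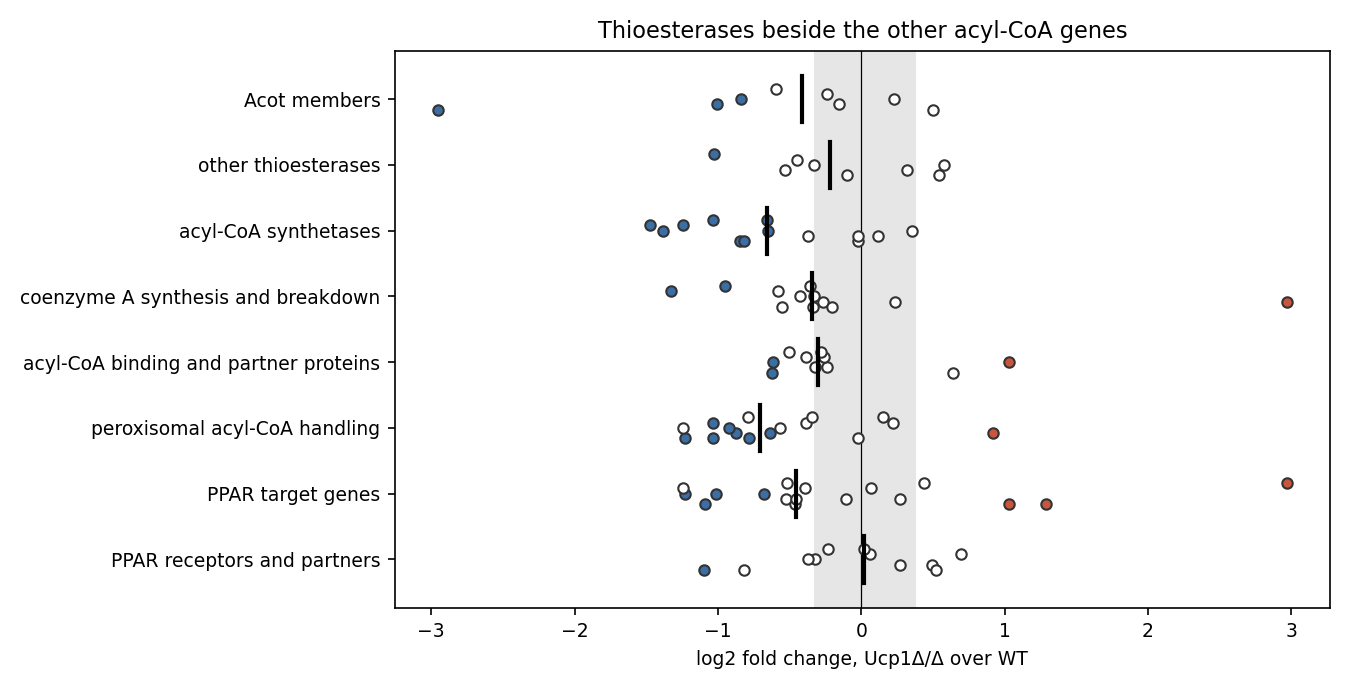
Log2 fold change (Ucp1Δ/Δ over WT) of each tested gene, 1 point per gene, for the Acot members and 7 lists of related genes; filled points passed an adjusted p of 0.05 (blue lower, red higher), black bars are list medians, and the grey band is the interquartile range over all 8930 genes tested. Acot1 is the point at -2.96 and was chosen for this value. The medians run from -0.71 for the peroxisomal genes to 0.02 for the PPAR receptors and partners.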

How the data were processed

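RNA of 4 WT and 4 Ucp1Δ/Δ BAT samples was read from a single end. The methods of the study name bbduk, STAR and HTseq-counts on mm10, whereas the submitters' processing notes name Trimmomatic, HISAT2 and DESeq2 with GRCm38. The authors deposited raw counts per Ensembl gene, used for all main results, and a table of normalized values on the log2 scale, deposited without its formula and used only in an alternative. Strand use and the annotation release are not given in the sources used here.

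The table lists 31053 genes, 30934 with a symbol in the name table used. The software was edgeR 4.0.16, limma 3.58.1 and DESeq2 1.42.0 under R 4.3.3. The filterByExpr function of edgeR left 8930 genes, on which a quasi-likelihood model with genotype as its only term was fitted after TMM scaling. P-values were adjusted by Benjamini-Hochberg over all of them, with a threshold of 0.05. TMM-scaled sizes also underlie the CPM values, to which a prior count of 2 was added before taking log2. Floors cover counting error only. The samples are separate mice, and no pair within a genotype was a duplicate (chi-square per degree of freedom 4.69 to 23.2). The test was checked on simulated data.

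The members and the gene lists were chosen with earlier results of these data known. Named genes were Pnpla2, the members, Acot5, Acot6, Acot10, up to 3 genes per direction and list with the smallest adjusted p under 0.05, and the 5 most like Acot1. Hadhb, Pctp and Cpt1b were named after their values were seen. A gene that this rule names is not reported here. Protein sequences were not used here. Alternatives changed the scaling, test, filter, values, replicate block and mice.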

Additional observations from a re-analysis of the deposited data

Results flagged for a closer look

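In 4 of 66 groups of 4 mice, 1 mouse stood apart from the other 3: its gap to the nearest, as a share of the range of the group, was above Dixon's critical value for 4 samples. About 1 in 20 such groups, here 3.3, would be picked by chance. Acot11 was at 4.92 log2 CPM in WT mouse 4 against 5.78 to 5.85 in the other WT mice (gap 0.922 of the range). Lypla1 was at 5.16 log2 CPM in Ucp1Δ/Δ mouse 1 against 4.54 to 4.6 in the others (0.903). Klhl22 was at 3.98 in Ucp1Δ/Δ mouse 4 against 4.24 to 4.26 (0.905), and 1810043G02Rik at 3.09 in the same mouse against 3.32 to 3.34 (0.919). Acot1 was not among these genes, since its WT mice formed a high and a low pair.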

How the results depend on the processing

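Of 33 tested genes named, 18 kept their direction and their side of the threshold in every alternative run, and 15 did not. Acot1 kept a negative log2FC in each fit that tested it, and was not tested under the filter of at least 10 counts in each mouse, since Ucp1Δ/Δ mouse 4 had 9. The 1872 genes called over all genes were 1195 with at least 10 counts in every mouse, 1025 in the 4 mice with little muscle RNA, and 1345 to 2155 with 1 mouse left out. The 3 members called lower were 1 in the 4 mice with little muscle RNA and 2 to 3 with 1 mouse left out, and the members called higher were 0 to 1, the 1 being Acot9 without WT mouse 2. With total counts only, which moved the median log2FC of all genes to 0.13, the count of other thioesterases called was 2, of synthetases 5, of binding proteins 1 and of PPAR receptors 2. With at least 10 counts in every mouse, the count of other thioesterases was 2, of binding proteins 1 and of PPAR receptors 2. With at least 1 count in any mouse, the count of coenzyme A genes was 5 and of PPAR receptors 2, which was also 2 with limma voom. DESeq2's Wald test called 11 PPAR targets. In the 4 mice with little muscle RNA, 4 synthetases, 0 binding proteins and 4 PPAR targets were called. With 1 mouse left out, the counts were 5 to 8 for synthetases, 3 to 5 for coenzyme A genes, 1 to 3 for binding proteins, 5 to 11 for PPAR targets and 1 to 3 for PPAR receptors. Signs turned for Acot2 (-0.33 to 0.11 with 1 mouse left out, 0.0014 of these without Ucp1Δ/Δ mouse 2, and 0.085 with the muscle covariate) and, in the 4 mice with little muscle RNA, for Acot7 (0.19) and Klhl22 (-0.11). The cause of these changes was not tested, beyond the smaller numbers of mice and genes in some of the fits.

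The replicate numbers did not pair the mice: same-numbered mice had correlations of -0.196 to 0.304 in their deviations, and 3 of 8 correlated best with their own number. With the replicate number as a block, 1719 genes were called and 2 members lower, since Acot4 had an adjusted p of 0.0732.

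Depth limits Acot3 and Acot12, which were near the floor of 3 counts, and the Acot1 and Acot4 values of single mice, which rest on 9 to 15 and 14 to 24 counts in Ucp1Δ/Δ mice.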
